A study of Danio rerio with 12 samples.

Results

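The 300 stretches of the zebrafish genome most crowded with accessible sites in solvent-treated embryos are described here across 3 stages and 2 treatments. Each stretch is a fixed 100 kb bin. The best 50000 peaks of each of the 6 DMSO lists on chromosomes 1 to 25 were merged where they overlapped by at least 1 bp, which gave 95170 merged regions. Each region was assigned to a bin by its middle, and the 300 bins with most regions were kept out of 13414 bins, or 2.24% of them. They are called peak-dense windows and are numbered W1 to W300 from the most crowded down. Coordinates are in GRCz10 (danRer10), the build named in the submitters' processing notes. Genes are not named for the windows, because an annotation of that build was not used here.

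ATAC-seq reads open chromatin: a transposase cuts DNA where nucleosomes leave it free, so a peak marks a promoter, an enhancer or another site held open. Such sites are not spread evenly along a genome, and genes that direct development often lie among many enhancers that act in different tissues and at different times. Retinoic acid, a derivative of vitamin A, acts through nuclear receptors bound to DNA and helps to pattern the hindbrain, trunk and several organs of the vertebrate embryo.

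All libraries came from whole wild-type embryos of Danio rerio, freed of chorion and yolk and lysed. The 6 groups had 2 libraries each: DMSO, the solvent, or 0.1 µM all-trans retinoic acid (atRA), at 80% epiboly (late gastrulation), at 12 somites, or 24 hours after fertilization (24 hpf). Exposure began at 30% epiboly for the earliest stage and at 80% epiboly for the later pair. The title of the series places the work in the study of chromatin under added retinoic acid. Whole embryos mix all cell types, so fewer cells with an open site and less opening per cell cannot be told apart, and nothing in the labels says that replicates came from separate clutches.

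Depth differed between libraries. The lists held 154354 to 439137 peaks, and depth, gauged by a background pileup computed from each list, lay between 0.69 and 3.28 fragments. At 80% epiboly it was 3.18 and 3.28 in the DMSO libraries and 2.47 and 0.87 in the atRA libraries, replicates 1 and 2. At 12 somites the DMSO libraries had 0.69 and 1.15 and the atRA libraries 1.60 and 1.44. At 24 hpf the values were 1.39 and 2.03 for DMSO and 2.03 and 1.98 for atRA. Both DMSO lists of 24 hpf carry a word in their peak names that no other list has; whether it marks a batch is not given, and it cannot be told apart from treatment at that stage. The same number of peaks, the best 50000, was counted in every library. The counts below are therefore relative to a fixed total, and a window can gain peaks only as others lose them.

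The windows held 5617 of the 95170 merged regions, or 5.90%. A window had 17 to 25 regions with a median of 18, against a median of 7 over all bins, and 408 bins had none. These values chose the windows and are a description. The edge of the set is arbitrary: 123 bins had 17 regions, of which 82 were kept and 41 left out by the order of chromosomes. W299 (chr16:51300001-51400000) and W300 (chr17:1300001-1400000) were the last inside, and chr17:8500001-8600000 and chr17:17900001-18000000 the first outside, all with 17 regions. Their means over the 12 libraries were 12.7 and 10.2 peaks inside and 9.17 and 11.7 outside, so the edge separates no distinct class of bins.

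**Figure D1:**
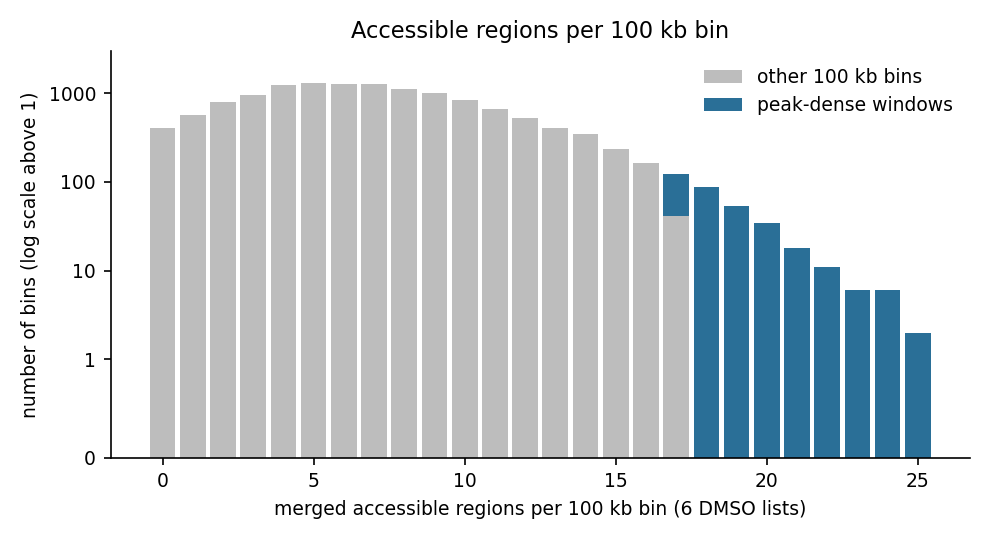
Number of 100 kb bins (log scale above 1) by the number of merged accessible regions they hold in the 6 DMSO lists; blue bins are the 300 peak-dense windows. The windows form the upper tail from 17 to 25 regions, and the bins with 17 regions are split between kept and not kept.

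Regions in the windows were packed more closely and were slightly broader. The windows were chosen for holding most of these regions, so smaller gaps and higher coverage follow from the rule. The values are a description and carry no test. The median gap between neighbouring regions was 3535 bp in the windows and 7062 bp in other bins. Gaps over 10 kb made up 10.02% in windows and 37.3% elsewhere, and gaps under 1 kb 16.1% and 10.4%. The median region was 367 bp wide inside and 338 bp outside. Open regions covered a median of 7.36% of a window (range 4.998% to 11.5%) and 2.36% of another bin. Most bases of even the most crowded windows thus lay outside the best peaks.

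Most windows had no window beside them, and the bins around them also held more peaks than the remaining genome. Whether neighbouring windows were more common than under random placement was not tested. Of the 300, 232 had no neighbouring window, and the other 68 formed 28 runs of 2 and 4 runs of 3. In the 6 atRA libraries, which did not choose the windows, a window held a mean of 10.8 ± 0.911 peaks (SD, n = 6 libraries). The bins next to a window held 5.30 ± 0.368, those at 200 kb 4.39 ± 0.247 and those at 400 kb 3.70 ± 0.107. All other bins together held 3.57 ± 0.0208. The excess had therefore fallen to near the level of the remaining genome within 400 kb.

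**Figure D2:**
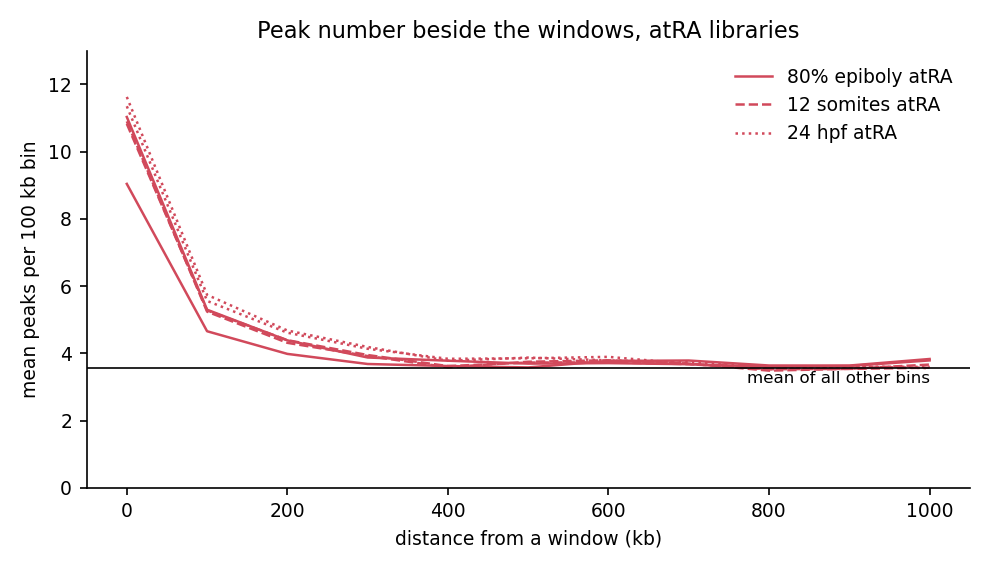
Mean number of best-50000 peaks per 100 kb bin against the distance from a peak-dense window in kb, one line for each atRA library, with the mean of all other bins as a horizontal line. Peak number falls from a mean of 10.8 in the windows to 5.30 in the next bin and 3.70 at 400 kb.

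Windows lay near chromosome ends more often than bins in general: 34 of them (11.3%) were within 1 Mb of an end, against 3.73% of all bins. Within 5 Mb the shares were 24.0% and 18.6%. The order of end and inner windows differed between libraries. At 80% epiboly they had means of 9.09 and 9.03 peaks in the DMSO libraries, below the inner windows at 11.1 and 10.9, and at 12 somites 11.2 and 11.4, above the inner windows at 9.79 and 10.2. In the atRA libraries of 80% epiboly the end windows had means of 8.47 and 11.7 and the inner windows 9.11 and 10.9. At 12 somites the end windows were also higher in atRA, at 11.9 and 11.5 against 10.8 and 10.7. At 24 hpf they were higher in DMSO replicate 1 and atRA replicate 2 (12.1 against 11.3, and 12.3 against 11.5) and lower in DMSO replicate 2 and atRA replicate 1 (10.8 against 11.2, and 11.2 against 11.4). The end windows were thus lower than the inner ones in 5 libraries, 3 of them the deepest at 80% epiboly, and higher in 7; the part of depth in this was not tested.

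Among chromosomes the spread was uneven. Because the rule on ties favours low chromosome numbers, the 218 bins with at least 18 regions, which are free of ties, give the fairer view. They made up 2.72% of the bins of chromosome 1 and 2.51% of chromosome 13, but 0.473% of chromosome 24 and 0.361% of chromosome 16. Chromosome 4 held 20 windows, all of them before position 28600000, although it has 767 bins. Its mean of 3.89 merged regions per bin was the lowest of the 25 chromosomes, where the others had 6.63 to 7.81. In zebrafish the long arm of that chromosome is known as late replicating and rich in repeats.

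The longest runs of neighbouring windows spanned 300 kb, and 3 of these 4 are given, in order of chromosome. The run at chr3:23400001-23700000 held 61 merged regions. Its 80% epiboly libraries had 41 and 36 peaks in DMSO and 23 and 43 in atRA, its 12 somite libraries 17 and 27 in DMSO and 30 and 33 in atRA, and its 24 hpf libraries 43 and 37 in DMSO and 46 and 48 in atRA. At both later stages the atRA libraries were above the DMSO libraries without overlap, while at 80% epiboly the atRA libraries lay on either side of the DMSO ones. The run at the start of chromosome 4, chr4:1-300000, held 52 regions and had 25 and 25 peaks in DMSO and 14 and 30 in atRA at 80% epiboly, against 26 to 34 in the 8 later libraries. The run at chr5:31900001-32200000 held 53 regions and was highest at 24 hpf, with 41 to 45 peaks in the 4 libraries of that stage and 24 to 35 in the other 8.

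The most crowded windows differed widely in how they were built up. W1 (chr10:16800001-16900000) held 25 merged regions, and W1 had 8 and 7 peaks in DMSO and 7 and 13 in atRA at 80% epiboly, 19 and 16 in DMSO and 12 and 12 in atRA at 12 somites, and 13 and 14 in DMSO and 20 and 25 in atRA at 24 hpf. By number of peaks, the order of treatments in W1 was thus opposite at the 2 later stages. Open sequence at 12 somites covered 4528 and 4511 bp in DMSO and 4241 and 4124 bp in atRA. At 24 hpf it covered 4021 and 4200 bp against 5677 and 6604 bp. Peak widths also differed between these libraries over the whole lists, as given below for W24. W1 also held highly ranked peaks. Its best peak ranked 3246 and 4051 in DMSO and 557 and 224 in atRA at 80% epiboly, 11 and 100 in DMSO and 136 and 153 in atRA at 12 somites, and 12 and 151 in DMSO and 6 and 6 in atRA at 24 hpf. The highest fold enrichment in W1 was 10.75 to 15.4 over the 12 libraries, with 12.5 and 13.3 in the DMSO libraries of 80% epiboly and 10.75 and 12.7 in atRA at 24 hpf. Ranks of lists of unequal length and depth show no change, and the fold did not follow their order. W2 (chr11:44400001-44500000), also with 25 regions, had 7 and 8 peaks in DMSO and 4 and 8 in atRA at 80% epiboly, 9 and 9 in DMSO and 12 and 14 in atRA at 12 somites, and 15 to 18 in the 4 libraries of 24 hpf. W2 filled with stage, and its 24 hpf libraries were above all others.

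W5 (chr6:27900001-28000000), with 24 regions, had 14 to 18 peaks in all 12 libraries, and its stages overlapped. W7 (chr25:300001-400000), also with 24, had 14 to 21. In W6 (chr11:18500001-18600000) the counts were 10 and 18 in the atRA libraries of 80% epiboly and 13 to 21 in the other 10 libraries. W10 (chr7:52200001-52300000), with 23 regions, had 9 to 12 peaks at 80% epiboly and 13 to 14 at 24 hpf. W5 and W7 were well filled at every stage, and W1 and W2 held fewer peaks than these at 80% epiboly. W6 and W10 were not stable with stage. Both were called as rises from 80% epiboly to 24 hpf in atRA (limma, described below, adjusted p = 0.0462 and 0.0128). At 80% epiboly the counts of W10 overlapped those of W1.

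W3 (chr1:58500001-58600000), W4 (chr3:1400001-1500000) and W8 (chr25:34600001-34700000), with 24 regions each, shared another pattern. At 80% epiboly W3 had 8 and 6 peaks in DMSO and 8 and 17 in atRA, W4 had 12 and 9 in DMSO and 14 and 21 in atRA, and W8 had 8 and 9 in DMSO and 7 and 18 in atRA. At the later stages these windows had 8 to 16, 13 to 21 and 14 to 23 peaks. In each of them the 80% epiboly library with the lowest depth, atRA replicate 2 at a background pileup of 0.87, held the most peaks of its stage, and the 3 libraries with a pileup of 2.47 or more held fewer. The part of depth in these windows was not tested. W9 (chr6:44300001-44400000) went the other way, with 23 regions but 8 to 13 peaks at 80% epiboly and 6 to 8 at the later stages, so that many of its regions came from the early stage.

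Across the set, a window had a mean of 6.17 to 18.7 peaks per library with a median of 10.5. The highest and lowest of the 12 libraries differed by 2 to 20 peaks with a median of 7. This range was 3 or less in 11 windows and 8 or more in 114. As a description, mean counts in the DMSO and in the atRA libraries had a Pearson r of 0.848 over the 300 windows, which share libraries and a fixed total of peaks. The number of merged regions and the mean atRA count had an r of 0.487, with the first limited to 17 to 25 by the rule.

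Open sites in the windows belonged to several stages at once more often than sites elsewhere. Of the DMSO regions in windows, 25.8% were in all 6 DMSO lists, against 21.2% of those outside, and 37.8% against 32.2% were in at least 1 list of every stage. Regions seen at 80% epiboly alone, in both lists, made up 9.12% inside and 8.17% outside, and those of 24 hpf alone 4.97% and 4.36%. Those of 12 somites alone, in both lists, made up 1.51% inside and 2.85% outside. With any list of the stage instead of both, the shares were 8.19% and 14.9% for 12 somites. They were 15.1% and 14.8% for 80% epiboly and 14.8% and 14.6% for 24 hpf. Of the single-stage shares, only that of 12 somites was thus lower inside the windows than outside. The shallowest list of the series, at 0.69, is of 12 somites. The part of depth in this share was not tested. In the atRA lists, 27.4% of the window regions were in all 6 and 15.3% in none, against 21.7% and 20.5% outside. These shares rest on the lists that chose the windows and carry no test. A window held 0 to 12 regions common to all 6 DMSO lists, with a median of 5 against 1 in other bins.

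The atRA lists allow a test, since the rule did not use them, although most window regions occur in both arms. Peaks in the windows more often overlapped best peaks of both other stages, were less enriched and were broader, in each of the 6 atRA libraries. The share of peaks that overlapped the best 50000 of both other stages was 73.0% and 67.8% inside and 57.9% and 60.2% outside in atRA replicates 1 and 2 of 80% epiboly. At 12 somites it was 68.7% and 69.0% inside and 62.0% and 63.1% outside, and at 24 hpf 65.1% and 63.4% inside and 61.5% and 61.1% outside. The gap was thus widest at 80% epiboly and narrowest at 24 hpf, and inside values were above outside values throughout. The mean was 67.8% ± 3.33 inside and 61.0% ± 1.79 outside, a difference of 6.87 ± 4.48 percentage points (SD, n = 6; exact permutation test by sign flips, two-sided, p = 0.0312, the smallest that 6 libraries allow, and the same after Benjamini-Hochberg adjustment over 4 properties). The sign flips treat the 6 differences as independent. All libraries share the windows, however, and each overlap share was computed against other atRA libraries. The p-values of the 4 properties may therefore overstate the evidence. By the rule the windows are also denser: in these libraries a window held a mean of 10.8 best peaks and another bin 3.57. The part of this density in the overlap shares, the fold and the width was not tested. A lower fold is therefore not read as a less open site.

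Peaks without a partner at another stage showed the reverse. They made up 11.9% ± 4.57 inside and 16.9% ± 5.53 outside, a difference of -4.97 ± 2.76 points (SD, n = 6, exact permutation p = 0.0312, adjusted p = 0.0312). The authors' fold enrichment of the median peak was 8.13 ± 1.31 inside and 8.95 ± 1.57 outside, a difference of -0.815 ± 0.280 with the same exact p. The median peak was 326 ± 30.2 bp wide inside and 304 ± 31.3 bp outside, or 21.9 ± 2.38 bp broader, again with the same exact p. Against the 300 bins next in crowding, each difference had the same direction and the same p but was smaller, at 1.26 and -0.850 points, -0.289 in fold and 7.92 bp. With the best 20000 peaks alone none of the 4 properties passed, and the share in both other stages differed by 0.911 points (exact permutation, adjusted p = 0.75). With the best 100000 the difference in fold was -0.193 and did not pass.

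**Figure D3:**
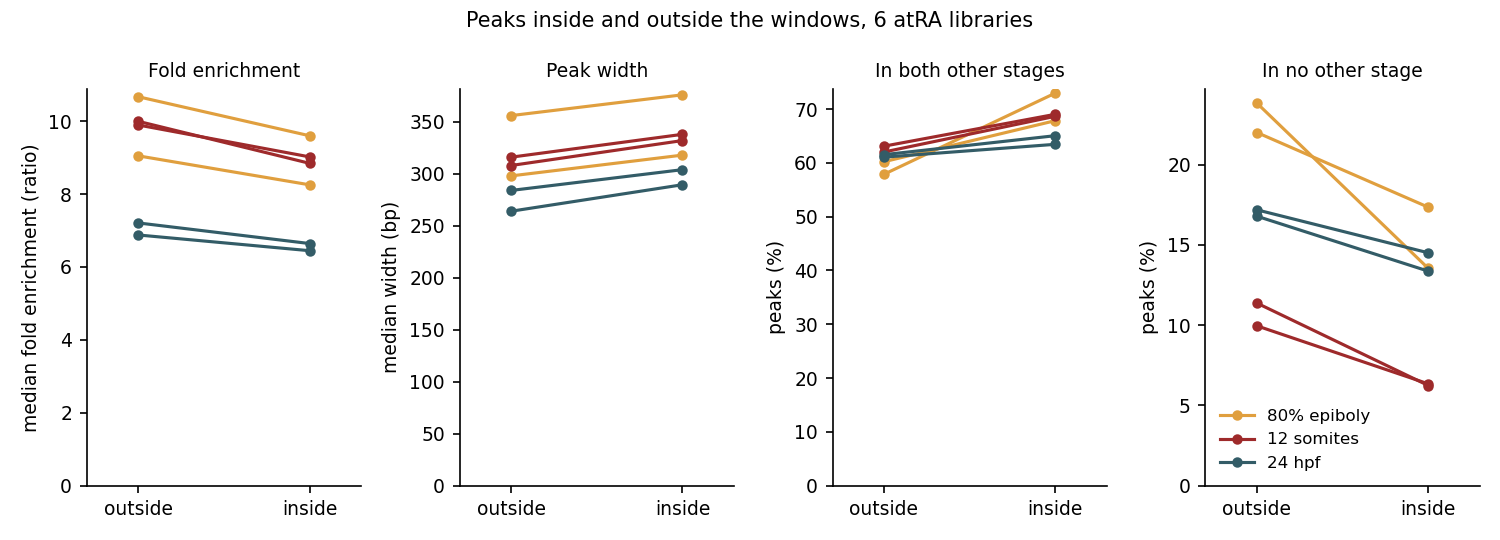
Median fold enrichment (ratio), median width (bp), and percentage of peaks that overlap the best 50000 of both other stages or of no other stage, for peaks outside and inside the windows; each line is 1 of the 6 atRA libraries. Every line slopes the same way in a panel: inside the windows fold and the single-stage share are lower, and width and the shared percentage are higher.

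The share of a library's best peaks that fell in the windows varied little. In the DMSO libraries it was 6.51% and 6.41% at 80% epiboly, 5.97% and 6.18% at 12 somites and 6.83% and 6.72% at 24 hpf, a description since these lists chose the windows. In the atRA libraries it was 5.42% and 6.62% at 80% epiboly, 6.54% and 6.50% at 12 somites, and 6.81% and 6.98% at 24 hpf. The 24 hpf libraries were above all 80% epiboly and 12 somite libraries in either arm, and the lowest value was that of atRA replicate 1 of 80% epiboly. Over the atRA libraries the share rose from 6.02% ± 0.844 to 6.89% ± 0.117 (SD, n = 2 each), a difference of 0.872 points that did not pass (exact permutation over 90 assignments, two-sided, p = 0.0667, smallest possible 0.0222). It was 0.275 points without 80% epiboly atRA replicate 1 (exact p = 0.333) and 1.47 without replicate 2 (exact p = 0.0333), so the early replicates decide its size. Of all peaks of a list, rather than the best 50000, 3.06% to 4.58% lay in windows, with the highest share in the list with fewest peaks.

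**Figure D4:**
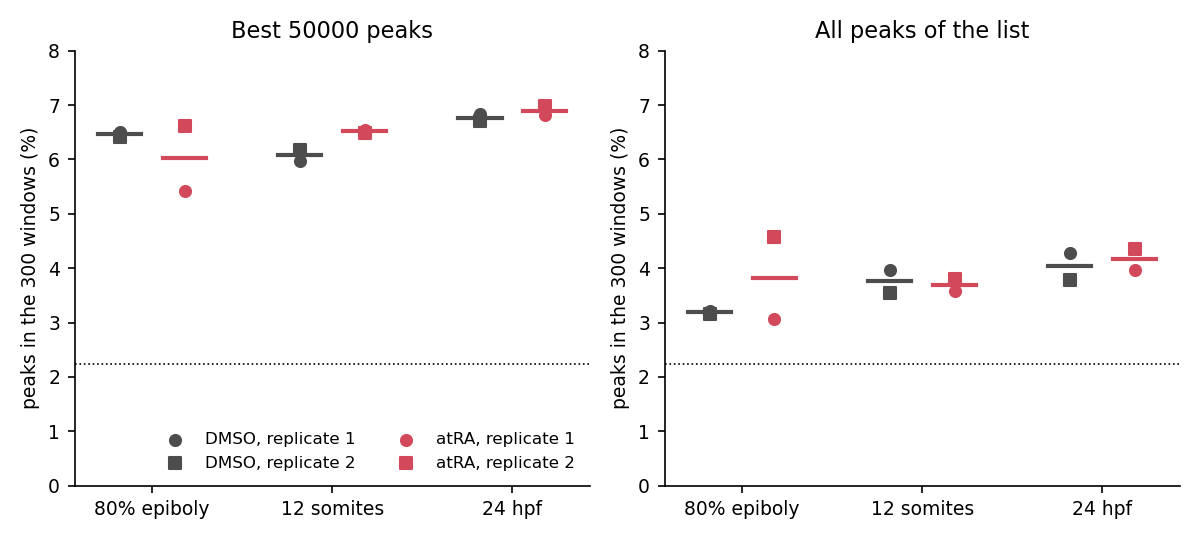
Percentage of the best 50000 peaks (left) and of all peaks (right) that lie in the 300 windows, for each library by stage and treatment; points are libraries, bars are means of 2 and the dotted line is the windows' 2.24% share of bins. The best-peak share runs from 5.42% to 6.98%, is highest at 24 hpf, and its widest gap between replicates is in the atRA libraries of 80% epiboly.

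Treatment was compared on windows chosen by the same steps from all 12 lists, which favour neither arm; 224 of the 300 windows were chosen again. In those, atRA minus DMSO was -0.227 points at 80% epiboly, 0.504 at 12 somites and 0.330 at 24 hpf. The libraries had 6.26% and 6.18% in DMSO and 5.31% and 6.67% in atRA at 80% epiboly, 5.85% and 6.02% against 6.39% and 6.48% at 12 somites, and 6.76% and 6.61% against 6.91% and 7.12% at 24 hpf. The atRA libraries were thus above both DMSO libraries at the later stages and on either side of them at 80% epiboly. The part of depth in this order was not tested. The mean over stages, 0.202 points, did not pass (exact permutation within stages, two-sided, p = 0.435). Without 80% epiboly atRA replicate 1 it was 0.429 points (exact p = 0.00926, the smallest possible), and without replicate 2 of that group -0.0243 (exact p = 0.954), so the mean rests on which of these libraries is kept. No difference between stages in this effect passed an exact permutation test: 12 somites exceeded 80% epiboly by 0.731 points (p = 0.333, smallest possible 0.0556), and the 2 other pairs had p = 0.5 and 0.667.

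Changes of single windows with stage were tested with limma on log2 of peaks per bin plus 0.5, over the 7408 bins with a mean of at least 3 peaks, which took in all 300 windows. Between 80% epiboly and 24 hpf in the atRA libraries, 51 windows (17%) rose and 18 (6%) fell at an adjusted p under 0.05, against 10.6% and 8.03% of all bins tested. The median window changed by 0.19 on the log2 scale and the median bin by 0.07. Windows hold more peaks than most bins tested, so changes may be easier to call in them. An unadjusted limma p under 0.05 was reached by 40% of windows and 35.5% of all bins. Between 80% epiboly and 12 somites 11 windows rose and 2 fell (background 2.2% and 0.661%), and between 12 somites and 24 hpf 2 rose and 4 fell (0.81% and 0.999%). Without 12 somites atRA replicate 1 or 2, and in a fit on the 6 atRA libraries alone, no window and no bin was called in these 2 contrasts. Most calls thus lay between the first and the last stage. The split depends on the early replicates: without 80% epiboly atRA replicate 1, 17 windows rose and 6 fell (background 3.66% and 1.94%), and without replicate 2, 81 rose and 10 fell (12.5% and 5.56%). Without 24 hpf atRA replicate 1, 9 windows rose and 3 fell (3% and 1%, background 2.78% and 3.37%), and without replicate 2, 7 rose and 4 fell (2.33% and 1.33%, background 2.09% and 2.69%), so the share of rises was then close to that of all bins. A fit on the 6 atRA libraries alone called 7 rises (2.33%, background 1.89%) and 4 falls (1.33%, background 1.31%). With the best 20000 peaks, 27 of the 243 windows tested rose (11.1%, background 8.33%). In the DMSO libraries, which chose the windows, the same contrast had 34 higher and 21 lower windows (background 7.4% and 5.41%). From 80% epiboly to 12 somites DMSO had 23 higher and 43 lower (background 6.14% and 6.78%). From 12 somites to 24 hpf it had 33 higher and 11 lower (background 7.19% and 4.14%). The DMSO counts are a description, as these lists chose the windows. Background pileup in DMSO was 3.18 and 3.28 at 80% epiboly, 0.69 and 1.15 at 12 somites and 1.39 and 2.03 at 24 hpf. The part of depth in the DMSO counts was not tested.

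W75 on chromosome 23 (chr23:23100001-23200000) rose most. It had 1 and 2 peaks in the atRA libraries of 80% epiboly, 8 and 6 at 12 somites and 15 and 15 at 24 hpf. The DMSO libraries had 4 and 4, 4 and 4, and 12 and 20. The groups of the first and last stage did not overlap in either arm, and every library of 24 hpf was above every earlier one. The rise in atRA was 3.001 ± 0.278 on the log2 scale (SE; limma, adjusted p = 0.000563), and the call held under all 15 alternatives run. Of 20 regions, 8 were in both 24 hpf and neither 80% epiboly atRA top set; 7 of these had a weaker peak in an 80% epiboly list, and 3 were absent from the best 100000 there. Open sequence in W75 grew from 342 and 642 bp to 4992 and 4952 bp.

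W12, which lies 1 bin away from W75 on the same chromosome, with 100 kb between them (chr23:22900001-23000000), was also filled at the last stage. It had 5 and 7 peaks in atRA at 80% epiboly, 6 and 9 at 12 somites and 16 and 18 at 24 hpf, with 10 and 9, 4 and 5, and 16 and 17 in DMSO. Its rise was 1.44 ± 0.209 (SE; limma, adjusted p = 0.00352). W235 (chr3:39200001-39300000) opened earlier, with 3 and 3, 10 and 11, and 9 and 13 peaks in atRA and 4 and 5, 8 and 9, and 13 and 11 in DMSO, in order of stage. Its level at 12 somites was already close to that at 24 hpf, and the change from 80% epiboly to 24 hpf was 1.69 ± 0.195 (SE; limma, adjusted p = 0.00172).

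W223 (chr1:34800001-34900000) followed the same early course, with 5 and 1, 10 and 11, and 9 and 8 peaks in atRA and 4 and 4, 9 and 11, and 10 and 10 in DMSO. The 12 somite and 24 hpf libraries were alike, and the 80% epiboly libraries were below them all. The change was 1.65 ± 0.431 (SE; limma, adjusted p = 0.0265), a call that 9 of 15 alternatives kept. W244 (chr4:17000001-17100000) had 2 and 6, 7 and 7, and 14 and 12 peaks in atRA and 9 and 7, 8 and 6, and 11 and 11 in DMSO, so its early level in atRA replicate 1 was the lowest of all libraries. Its change in atRA was 1.74 ± 0.344 (SE; limma, adjusted p = 0.00996), and 12 of 15 alternatives kept the call, against 14 of 15 in W12 and 15 of 16 in W235.

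The 5 named windows that fell had fewer peaks at 24 hpf than at 80% epiboly in both arms. W209 (chr21:33900001-34000000) had 14 and 13 peaks in atRA at 80% epiboly, 10 and 10 at 12 somites and 6 and 5 at 24 hpf, with 14 and 15, 10 and 11, and 6 and 8 in DMSO. Stages did not overlap in either arm, and both arms fell in step. The change in atRA was -1.23 ± 0.157 (SE; limma, adjusted p = 0.00232), and the call held under all 16 alternatives run. Of its 14 regions, 6 were in both early and neither late top set, and 5 of these were absent from the best 100000 peaks at 24 hpf. W136 (chr2:28400001-28500000) had 11 and 8, 4 and 5, and 5 and 2 peaks in atRA. In DMSO it had 12 and 11, 8 and 8, and 3 and 5. Its change in atRA was -1.41 ± 0.337 (SE; limma, adjusted p = 0.0193). The step to 12 somites was the larger in atRA, at -0.991 and then -0.424 on the log2 scale. In DMSO the later step was larger, at -0.496 and then -0.954. None of these steps passed (limma, adjusted p from 0.0873 to 0.506).

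W133 (chr1:26300001-26400000) kept its peaks until 12 somites, with 12 and 10, 10 and 11, and 3 and 5 in atRA and 8 and 8, 13 and 14, and 5 and 7 in DMSO. The 24 hpf libraries were below all others. Its change was -1.38 ± 0.222 (SE; limma, adjusted p = 0.00471). W112 (chr13:14800001-14900000) had 15 and 12, 11 and 12, and 7 and 5 peaks in atRA and 13 and 13, 11 and 10, and 7 and 3 in DMSO. W181 (chr14:14400001-14500000) had 13 and 11, 11 and 9, and 5 and 7 in atRA and 11 and 15, 12 and 12, and 4 and 7 in DMSO. In both windows the 4 libraries of 24 hpf were below the 8 earlier ones, and the changes in atRA were -1.12 ± 0.291 and -0.96 ± 0.250 (SE; limma, adjusted p = 0.0259 and 0.0264). Each call of a fall other than that of W209 was lost under some alternatives: 12 of 15 kept it in W136, 13 of 15 in W133, 10 of 16 in W112 and 10 of 16 in W181.

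**Figure D5:**
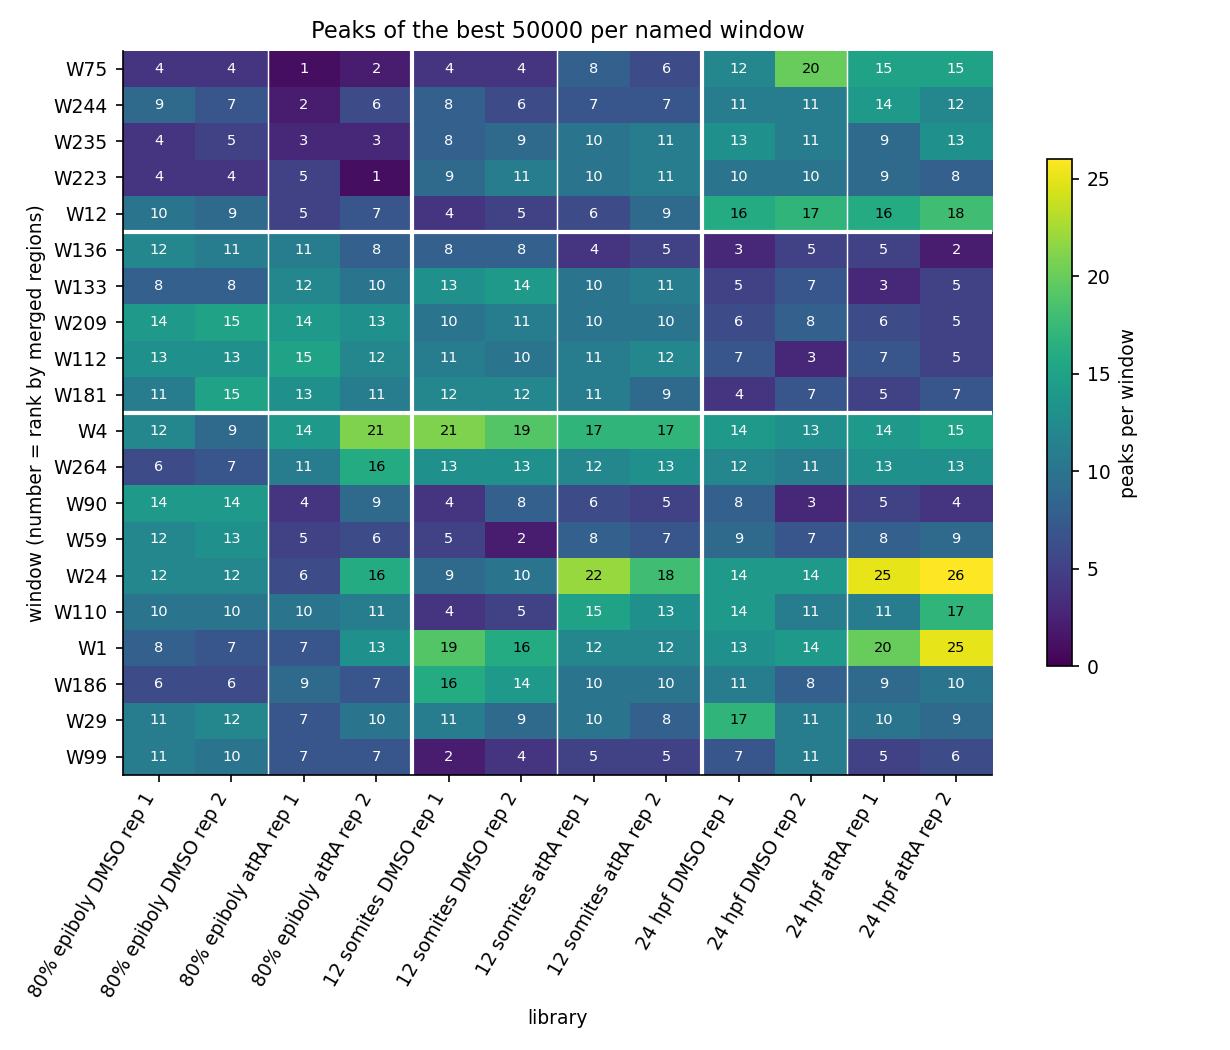
Number of best-50000 peaks (colour and digits) in 20 named windows, in rows, for the 12 libraries, in columns ordered by stage and treatment. The upper 5 windows rose and the next 5 fell from 80% epiboly to 24 hpf in the atRA libraries; the lower 10 had the largest excess or deficit of atRA over DMSO at a stage, such as W24 with 25 and 26 peaks in atRA and 14 and 14 in DMSO at 24 hpf.

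Differences between atRA and DMSO in single windows are a description, since DMSO lists chose the windows and so favour a deficit in atRA. With limma, 1 window was called higher in atRA at 80% epiboly, W264 (background 0.229% of bins higher and 0.229% lower), and none at 12 somites or 24 hpf, where no bin of the genome was called (0%) and 46 and 30 windows (15.3% and 10%) had an unadjusted p under 0.05, against 12.2% and 6.55% of all bins. At 80% epiboly, 37 windows had both atRA libraries above both DMSO libraries and 84 had them below, or 12.3% and 28.0%, against 13.4% and 18.1% of bins. At 12 somites the split turned, to 66 above and 27 below (22.0% and 9.0%, background 15.9% and 11.2%). At 24 hpf it was 43 above and 38 below (14.3% and 12.7%, background 9.03% and 9.75%), so the windows exceeded the background in both directions. Windows hold more peaks than most bins tested, so tied counts may be rarer and groups may separate more often in them. The part of peak number in these shares, and in those of unadjusted p, was not tested. A share above the background is therefore not read as an excess of treatment differences. At 80% epiboly the atRA libraries had means of 9.04 and 11.03 peaks per window and the DMSO libraries 10.8 and 10.7. The order of depth between the arms turned as well. Background pileup at 80% epiboly was 3.18 and 3.28 in DMSO and 2.47 and 0.87 in atRA. At 12 somites it was 0.69 and 1.15 in DMSO and 1.60 and 1.44 in atRA. The part of depth in the turn of the split was not tested.

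W24 on chromosome 23 (chr23:36000001-36100000) had the largest excess under atRA at both later stages. It had 9 and 10 peaks in DMSO and 22 and 18 in atRA at 12 somites, and 14 and 14 in DMSO and 25 and 26 in atRA at 24 hpf. At 80% epiboly the values were 12 and 12 in DMSO and 6 and 16 in atRA. The groups did not overlap at the later stages and did at the first. At 12 somites both DMSO libraries were shallower than both atRA libraries. The part of depth in the excess of that stage was not tested. Open sequence at 12 somites covered 2402 and 3181 bp in DMSO and 7102 and 5965 bp in atRA, and at 24 hpf 4298 and 4247 bp against 7466 and 8095 bp. List-wide, the median of the best 50000 peaks was 244 and 292 bp wide in DMSO and 317 and 310 bp in atRA at 12 somites. At 24 hpf it was 284 and 308 bp against 285 and 266 bp. At each of these stages 6 regions of W24 were in both atRA and neither DMSO top set; 5 of them at 12 somites and 6 at 24 hpf had a peak lower in a DMSO list. Absent from the best 100000 peaks of both DMSO lists were 3 of these 6 regions at 12 somites and 0 at 24 hpf. These regions account for part of the excess in W24, as the others were in the top set of 1 atRA library or of some DMSO library.

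W110 (chr12:8800001-8900000) had 4 and 5 peaks in DMSO and 15 and 13 in atRA at 12 somites, but 10 and 10 against 10 and 11 at 80% epiboly and 14 and 11 against 11 and 17 at 24 hpf. The dip in DMSO at 12 somites stood apart from the other stages, and all 7 regions in both atRA and neither DMSO top set at 12 somites had a weaker peak in a DMSO list, though 2 of them were absent from the best 100000 of both. The background pileup of these DMSO libraries was 0.69 and 1.15 and that of the atRA libraries 1.60 and 1.44; its part in the gap was not tested. At 80% epiboly the largest excess was in W4, given above, and in W264 (chr7:73600001-73700000) with 6 and 7 peaks in DMSO and 11 and 16 in atRA. In both, the shallow atRA replicate 2 was the higher of its pair, and at the later stages W264 had 11 to 13 peaks in all 8 libraries.

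Deficits under atRA were smaller at the later stages. At 80% epiboly W90 (chr4:25000001-25100000) had 14 and 14 peaks in DMSO and 4 and 9 in atRA, and W59 (chr13:22100001-22200000) 12 and 13 against 5 and 6. W90 had 3 to 8 peaks in all later libraries, so its atRA libraries of 80% epiboly lay nearer to the later level. At 12 somites W1 had 19 and 16 against 12 and 12, and W186 (chr17:1100001-1200000) 16 and 14 against 10 and 10. Open sequence differed less than these counts. In W1 it covered 4528 and 4511 bp in DMSO and 4241 and 4124 bp in atRA. In W186 it covered 4180 and 4129 bp against 3833 and 3992 bp. Over the whole lists, however, the median of the best 50000 peaks was 244 and 292 bp wide in these DMSO libraries and 317 and 310 bp in atRA. The part of this list-wide width in the covered bases was not tested. In each of the 2 windows, 2 regions were in both DMSO and neither atRA top set. At 24 hpf W29 (chr2:35700001-35800000) had 17 and 11 against 10 and 9, and W99 (chr7:54300001-54400000) 7 and 11 against 5 and 6. In W29 and W99 the gap between the nearest libraries of the arms was 1 peak, so these deficits are within the spread of the DMSO pair. With the best 20000 peaks, W90 and W99 turned to an excess of 1.0 and 0.5 peaks.

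Regions that appeared or vanished with treatment were few in the windows. Gained regions were among the best 50000 peaks of both atRA libraries and outside the best 100000 of both DMSO libraries; lost regions were defined with the arms exchanged. At 80% epiboly, 16 of 4281 window regions were gained (0.374%, against 0.580% of all regions) and 32 lost (0.747% against 0.838%). At 12 somites, 28 of 4345 were gained (0.644% against 0.613%) and 4 lost (0.0921% against 0.241%). At 24 hpf, 9 of 4590 were gained (0.196% against 0.218%) and 6 lost (0.131% against 0.336%). Windows chosen from DMSO lists favour regions open in DMSO and so disfavour gains. In the windows chosen from all 12 lists, gains were 0.399% at 80% epiboly, 0.806% at 12 somites (35 of 4344 regions) and 0.254% at 24 hpf, and losses 0.727%, 0.046% and 0.170%. There the share of gains was below that of the genome at 80% epiboly and above it at 12 somites. At 24 hpf, with 12 of 4717 regions gained, it was near that of the genome. The share of losses was below the genome's at each stage, with 31, 2 and 8 regions lost. These shares rest on few regions and carry no test. In the windows chosen from DMSO lists, the 28 gains of 12 somites lay in 23 windows.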

How the data were processed

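ATAC-seq peak lists of 12 libraries, 1 per library, were used. Bowtie2, SAMtools and MACS2 and the builds GRCz10 and danRer10 are named in the submitters' processing notes; versions, settings, read shift and fragment selection are not given in the sources used here. Peaks were called per library, and a peak's values depend on that library's depth. The authors deposited, per peak, a fold enrichment (a ratio to the caller's background), −log10 p- and q-values, and a score that repeats the −log10 q-value; these only ranked or described peaks within a list.

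Peaks were ranked by −log10 p, then fold, then position. Fold and −log10 p together gave a whole-number pileup for 100% of peaks in each list (tolerance 0.001) and a background pileup, proportional to depth only if the caller was set alike for all lists. Fragment totals are unknown, so no counting intervals are given. Stage was tested in atRA libraries, and treatment on windows chosen from all 12 lists, since DMSO lists chose the windows. Exact permutation tests over libraries were used for shares and properties. Peaks per bin were tested with limma 3.58.1 (R 4.3.3, trend, 6 groups in 1 fit, Benjamini-Hochberg), which was tested on simulated data; Python 3.11.15 did the rest. No pairing by replicate number was seen in peaks per bin. The windows, lists and tests were chosen with earlier results of these data known. Named windows were the 10 most crowded, the 5 largest rises and 5 largest falls among called windows whose atRA groups did not overlap, the 2 largest excesses and deficits per stage, the 3 longest runs, and ranks 299 to 302. Genes and sequences of the windows were not analysed here, as no genome of the build was used. Alternatives were other top sets, rankings, grids, window numbers, pseudocounts, filters, a replicate block and single libraries left out. In the limma fits 10 of the 12 libraries were left out in turn, and the DMSO libraries of 24 hpf were always kept.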

Additional observations from a re-analysis of the deposited data

Results flagged for a closer look

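In 4 windows the change from 80% epiboly to 12 somites differed between atRA and DMSO by limma's interaction term, against 0.688% of bins with a positive and 0.229% with a negative term. The differences were 1.06 ± 0.201 on the log2 scale in W147 (SE, adjusted p = 0.0488), 1.47 ± 0.286 in W110 (adjusted p = 0.0488), 2.23 ± 0.423 in W59 (adjusted p = 0.0488) and 1.94 ± 0.394 in W75 (adjusted p = 0.0499).

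In W147 (chr4:15000001-15100000) DMSO fell from 10 and 10 peaks to 6 and 6 while atRA had 6 and 7 and then 8 and 9. W59 had 12 and 13 and then 5 and 2 in DMSO, and 5 and 6 and then 8 and 7 in atRA. W110 had 10 and 10 and then 4 and 5 in DMSO, and 10 and 11 and then 15 and 13 in atRA. W75 had 4 and 4 at both stages in DMSO, and 1 and 2 and then 8 and 6 in atRA.

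All 4 lie close to the threshold: 11 of 57 alternative values passed, with adjusted p from 0.0168 to 0.192, and none changed direction. DMSO libraries, which chose the windows, enter this contrast. DMSO depth fell from background pileups of 3.18 and 3.28 to 0.69 and 1.15 between these stages, and that of atRA moved from 2.47 and 0.87 to 1.60 and 1.44; its part in these differences was not tested.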

How the results depend on the processing

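The rise of the atRA share with stage ranged from 0.275 to 1.469 points with each atRA library left out, and kept its direction under every alternative run. The treatment effect on windows from all 12 lists ranged from -0.0243 to 0.429 points with each library left out, and was 0.139 without the 24 hpf stage, an alternative chosen after seeing the data. With the best 20000 peaks the differences in properties were -1.45 in fold, 23.2 bp in width, 0.911 and -1.60 points in the shares, and none passed; with the best 100000 the fold difference was -0.193 and did not pass. With 1 atRA library left out no property can pass, since 5 libraries allow no exact p below 0.0625; the differences were -0.892 to -0.748 in fold, 21.2 to 22.3 bp, 5.22 to 7.77 points and -5.43 to -3.90 points.

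Counts of called windows moved more, with the share of all bins tested in brackets. From 80% epiboly to 12 somites, 7 rose with every bin tested (1.52%), 6 with the best 20000 peaks (2.28%), and 1 fell with the best 100000 (1.25%). From 12 somites to 24 hpf, 1 rose (0.397%) and 1 fell (1.04%) with the best 20000, and 5 (1.10%) and 7 (1.79%) with the best 100000. From 80% epiboly to 24 hpf, 27 rose with the best 20000 (8.33%). With the 6 atRA libraries alone, 0 windows and 0 bins were called in the first 2 contrasts and 7 rose (1.89%) and 4 fell (1.31%) in the last. With a library left out, DMSO libraries added after seeing the data, counts had the following ranges, with numbers of bins in brackets. Between 80% epiboly and 12 somites, 0 to 44 windows rose (0 to 355 bins) and 0 to 2 fell (0 to 44 bins). Between 12 somites and 24 hpf, 0 to 8 rose (0 to 88 bins) and 0 to 4 fell (0 to 77 bins). Between 80% epiboly and 24 hpf, 7 to 81 rose (155 to 929 bins) and 3 to 15 fell (144 to 564 bins). Windows and bins did not always move together. In the last contrast, falls were fewest without 24 hpf atRA replicate 1 in windows and without 80% epiboly atRA replicate 1 in bins. The excesses and deficits named per stage were counted again with the best 20000 and the best 100000 peaks, which gave 24 values. Of these, 5 stayed within the replicate spread of the main count, 17 moved beyond it in the same direction and 2 reversed. The reversals were W90 and W99, which turned to an excess of 1.0 and 0.5 peaks with the best 20000. The cause was not tested.

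No pairing by replicate number was seen in peaks per bin: over 15 pairs of groups, deviations of same-numbered libraries had r from -0.111 to 0.075, and 0 pairs were over 0.1. A shared origin of same-numbered libraries could still go unseen in these values. With the replicate block the exact permutation p was 0.111 for the rise with stage and 0.344 for treatment. The number of fragments behind the counts differed. The peak at rank 50000 rested on 40 and 57 overlapping fragments in 80% epiboly DMSO replicates 1 and 2. In 12 somites DMSO replicates 1 and 2 it rested on 10 and 16. These are single peaks whose fold also differed, at 9.81, 6.82, 6.08 and 7.89 in that order, so depth is not their only difference.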
